A study of Homo sapiens with 6 samples.

Results

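The genes examined here were the secreted and membrane-bound metalloproteases of the MMP, ADAM and ADAMTS families, with their inhibitors, the TIMPs and RECK. They were chosen by name: every row of the expression table whose symbol began with MMP, ADAM, ADAMTS or TIMP and a digit, together with RECK, leaving out antisense transcripts and symbols ending in P. This gave 75 of the 26255 gene symbols: 24 MMP genes, 26 ADAM genes, 20 ADAMTS genes, 4 TIMP genes and RECK. These counts include 7 symbols classed as pseudogenes: ADAM1A, ADAM3A, ADAM5, ADAM6, ADAM20P1, ADAM21P1 and ADAMTS7P1. The annotation also lists MMP23A as a pseudogene. RNA-seq had been carried out on the triple-negative human breast cancer line MDA-MB-231 in 2 groups of 3 libraries each. All cells had been infected with lentivirus and selected with puromycin, so both groups carried a hairpin vector. The first group carried a control hairpin (shNT). The second, labelled shGPR81, carried a hairpin against GPR81, the lactate receptor encoded by HCAR1. The study made lines with different GPR81 hairpins, and which of them was sequenced is not given in the sources used here, so the effect of 1 hairpin or of 1 selected line cannot be told apart from that of GPR81. The labels do not say that the libraries of a group came from separate cultures, and p-values then measure only the spread between these libraries, which may be technical.

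Metalloproteases cut proteins with a zinc ion held in the active site, and most are made as inactive precursors that must be cleaved before they work. MMPs mainly degrade the extracellular matrix, ADAMs mainly release the outer parts of membrane proteins such as growth factor precursors, and ADAMTS proteases cut proteoglycans, procollagens and other matrix proteins. TIMPs occupy the active site of the proteases and block it, and RECK is an inhibitor anchored in the cell membrane. In breast cancer, tumor cells and the surrounding fibroblasts and leukocytes all supply these enzymes, whose balance with the TIMPs bears on invasion and on the breakdown of bone matrix.

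The values are FPKM (fragments per kilobase of transcript, scaled to the mapped reads of the library), which allow levels of different genes to be set side by side. HCAR1 itself was at 0.968, 1.02 and 1.36 FPKM in the shNT libraries and at 0.978, 0.891 and 0.396 FPKM in those labelled shGPR81. The groups overlapped, and the log2 fold change was -0.57 with an SE of 0.31 (limma, adjusted p = 0.38), so a lower level of the targeted RNA was not detectable in these libraries at this depth. The paper reports significantly reduced GPR81 in its knockdown lines by RT-qPCR and western blotting, which are other measures than these libraries. VIM, the mesenchymal filament gene of this line, was at 3211 to 3937 FPKM in shNT and 3960 to 4443 FPKM in shGPR81. The groups did not overlap, and VIM did not pass the test (log2 fold change 0.22; limma, adjusted p = 0.267). CDH1, ESR1 and PGR were listed at 0 in all 6 libraries. ERBB2 was at 10.6 to 12.6 FPKM and the epithelial gene EPCAM at 5.20 to 6.86 FPKM, both with overlap, and CD44 was at 173 to 180 FPKM in shNT and 149 to 158 FPKM in shGPR81 (limma, adjusted p = 0.0566). Of 8 fibroblast, endothelial and leukocyte markers, DCN, LUM and CDH5 were listed at 0, and PTPRC, PDGFRA and PECAM1 were at or below 0.136 FPKM. PECAM1 was at 0.0833 to 0.136 FPKM in shNT and 0.0161 to 0.0807 FPKM in shGPR81, and was not tested. The myeloid markers CD14 and CD68 separated the groups in opposite directions without passing the test: CD14 was at 2.24 to 4.29 FPKM in shNT and 1.14 to 1.74 FPKM in shGPR81 (log2 fold change -1.10; limma, adjusted p = 0.0562), and CD68 at 76.7 to 99.1 and 110 to 129 FPKM (log2 fold change 0.41; adjusted p = 0.0691). Their part in the results for metalloproteases was not tested. Relative sequencing depth, taken from the steps of the FPKM values, ran from 1 to 1.07. Among the 10 most abundant metalloprotease and inhibitor genes, shNT replicate 1 was always at an end of its group. It was the lowest shNT library for TIMP1, TIMP2, TIMP3, MMP14, ADAM8, ADAM15 and ADAM19, and the highest for ADAM9, ADAM10 and ADAM17. Over all 31 tested genes, shNT replicate 1 was the lowest of its group in 12 and the highest in 10. Each of the other libraries was the lowest in 9 to 11 and the highest in 8 to 13.

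Of the 75 genes, 31 were tested because they reached 0.1 FPKM in at least 3 of the 6 libraries, 25 were above 0 in some library but below this limit, and 19 were listed at 0 throughout. Of the 7 symbols classed as pseudogenes, 1 was tested (ADAM1A) and 4 were listed at 0, as was MMP23A. A gene was called when its adjusted p was under 0.05 in limma and its fold change above 1.5. Of the tested metalloprotease and inhibitor genes, 1 was called lower in the libraries labelled shGPR81 (MMP1) and 1 was called higher (MMP14). Over all 14349 genes tested, 1.59% were called lower and 0.955% higher, and 1 of 31 genes in either direction is the smallest count above 0. At an adjusted p under 0.05 whatever the fold, 1 gene was lower and 3 were higher (MMP14, ADAM15 and TIMP1), beside 3.07% lower and 2.06% higher over all genes. In 7 genes every library labelled shGPR81 was below every shNT library, and in 8 every one was above, where 12.7% and 12.9% of all tested genes did so. As a median, the log2 fold change came to -0.02 for the 31 genes and 0.008 for all tested genes. MMP9, which is 1 of the 7 lower genes, passed the limit on low values through the shNT libraries alone. Its place among the 7 was thus fixed by that limit.

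**Figure D1:**
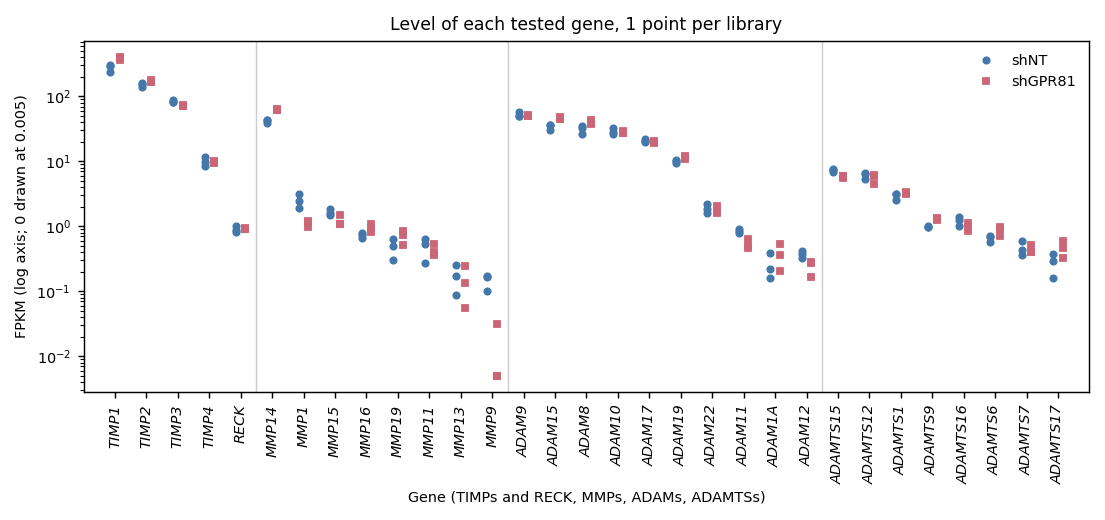
FPKM on a log axis for each of the 31 tested genes, grouped into TIMPs with RECK, MMPs, ADAMs and ADAMTSs. Each point is 1 library, and shNT and shGPR81 are drawn side by side; the TIMPs, MMP14 and 6 ADAMs hold the high values, and a value of 0 is drawn at the foot of the axis.

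The families were expressed very unequally. Summed over its genes, the TIMP family came to 467, 538 and 562 FPKM in the shNT libraries, the ADAMs to 184, 183 and 181, the MMPs to 45.7, 50.1 and 50.3, and the ADAMTSs to 21.0, 20.9 and 19.2. A mean of 10 FPKM or more was reached by 10 genes, TIMP1, TIMP2, TIMP3, MMP14, ADAM8, ADAM9, ADAM10, ADAM15, ADAM17 and ADAM19. In the shNT libraries TIMP1, TIMP2 and TIMP3 stood above all proteases in that order with no overlap between neighbours, whereas the ranges of ADAM15, ADAM8 and ADAM10 overlapped each other. ADAM9 was above MMP14 in each shNT library, at 49.7 to 58.7 against 38.7 to 44.1 FPKM. The order was the opposite in the libraries labelled shGPR81, where MMP14 was at 62.1 to 65.2 and ADAM9 at 50.4 to 52.0 FPKM.

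Among the inhibitors, TIMP1, the secreted inhibitor made by most tumor cells, passed the test. Its level was 236, 292 and 302 FPKM in shNT and 386, 371 and 410 FPKM in shGPR81. All 3 libraries labelled shGPR81 were above all shNT libraries, and the first shNT library was the lowest. The means were 276 ± 35.3 and 389 ± 19.7 FPKM (SD, n = 3), a log2 fold change of 0.50 with an SE of 0.10 and a 95% interval of 0.28 to 0.72 (limma, adjusted p = 0.028), which is 1.41-fold and short of the fold limit. TIMP1 lies at chrX:47441807-47446188 on GRCh37, within SYN1, a gene on the opposite strand. SYN1 was at 0.457 to 0.660 FPKM in all libraries. With 1 library left out, the adjusted p of TIMP1 passed 0.05 in 2 of 6 fits, those without shNT replicate 1 (0.00849) or replicate 3 (0.0309), and reached 0.0789 to 0.113 in the fits without shNT replicate 2 or any single library labelled shGPR81. Without the limit on low values it was 0.0568.

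TIMP2 both blocks MMPs and, on the cell surface, helps MMP14 to activate pro-MMP2. Its locus is shared with CEP295NL on the same strand. TIMP2 was at 140, 153 and 160 FPKM in shNT and at 165, 168 and 178 FPKM in shGPR81. The groups did not overlap, but the difference was small and did not pass the test (log2 fold change 0.18, SE 0.06; limma, adjusted p = 0.175). TIMP3, which binds to the matrix and also blocks ADAM17, was at 82.4, 83.3 and 89.1 FPKM in shNT and at 72.1, 74.8 and 72.4 FPKM in shGPR81. Here every library labelled shGPR81 lay below every shNT library, with a log2 fold change of -0.22 and an SE of 0.05 (limma, adjusted p = 0.0547). The adjusted p was 0.0313 without shNT replicate 1 and 0.0323 after quantile normalization, and 0.119 to 0.206 without any other single library. TIMP4 was at 8.59, 9.73 and 11.6 FPKM against 9.69, 9.62 and 10.3 FPKM, and RECK at 1.03, 0.892 and 0.809 FPKM against 0.934, 0.897 and 0.912 FPKM. The groups overlapped for both genes, and the 95% intervals of the log2 fold change were -0.26 to 0.26 for TIMP4 and -0.34 to 0.36 for RECK. The sign turned with the library left out and with centring by chromosome for both genes, and after quantile normalization for RECK.

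The make-up of the TIMP pool follows from these same values and is given as a description. TIMP1 made up 50.6%, 54.3% and 53.7% of the summed TIMP FPKM in shNT and 61.0%, 59.5% and 61.1% in shGPR81. The ratio of TIMP1 to TIMP3 was 2.86, 3.5 and 3.38 in shNT and 5.35, 4.96 and 5.66 in shGPR81. Both quantities were higher in every library labelled shGPR81, a split that an exact permutation test of 3 against 3 libraries cannot put below p = 0.1. The ratio had to separate, since TIMP1 was higher and TIMP3 lower without overlap.

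Among the collagenases, which make the first cut in fibrillar collagen, MMP1 (interstitial collagenase) fell. It was at 3.10, 2.50 and 1.92 FPKM in shNT and at 1.17, 0.972 and 1.19 FPKM in shGPR81. All libraries labelled shGPR81 were below all shNT libraries, and the shNT libraries were spread more widely. The means were 2.51 ± 0.589 and 1.11 ± 0.120 FPKM (SD, n = 3), with a log2 fold change of -1.09, an SE of 0.19 and a 95% interval of -1.53 to -0.65 (limma, adjusted p = 0.0183). MMP1 lies at chr11:102660132-102668891 on GRCh37 and shares its locus with WTAPP1 on the opposite strand, a pseudogene listed at 0 in all libraries. The call held in 2 of the 6 fits with 1 library left out: the adjusted p was 0.088 without shNT replicate 2 and 0.0732, 0.0819 and 0.0584 without replicates 1, 2 and 3 of shGPR81.

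The other collagenases were scarce. MMP13 was at 0.0866, 0.253 and 0.173 FPKM in shNT and at 0.135, 0.246 and 0.0546 FPKM in shGPR81, so the groups overlapped (log2 fold change -0.17, SE 0.40), and MMP8 was above 0 in 1 library only. MMP1, MMP3, MMP7, MMP8, MMP10, MMP12, MMP13, MMP20 and MMP27 lie side by side within chr11:102391239-102826461 on GRCh37. Of these, MMP1 and MMP13 were the only ones tested, and MMP20 and MMP27 were listed at 0.

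MMP9 (gelatinase B), which degrades denatured collagen and the collagen IV of basement membranes, was close to the limit of detection. It was at 0.102, 0.166 and 0.170 FPKM in shNT and at 0.0318, 0 and 0 FPKM in shGPR81. Recovered as whole reads, these values were 3, 5 and 5 against 1, 0 and 0, so 1 read in all stood against 13. Corrected for depth, the ratio of reads was 0.0728 with a 95% interval of 0.00171 to 0.485 (Clopper-Pearson, counting error only). The interval pools the reads of each group, whereas replicates differed by more than counting noise. MMP9 passed the limit on low values through the shNT libraries alone, which fixed its direction. The ratio and its interval are thus a description and no support for a difference. The log2 fold change was -1.15 with an SE of 0.33 and did not pass the test (limma, adjusted p = 0.102), while without the limit on low values it did (adjusted p = 0.0349). With a pseudocount of 1 the same values gave -0.18 and with 0.01 they gave -3.24. MMP9 lies on chromosome 20, where the median log2 fold change of the other 387 genes tested was -0.39, and it was -0.75 once each chromosome had been centred; the part of the chromosome in the result was not tested. MMP2 (gelatinase A) was at 0.0241 FPKM in 1 shNT library and 0.0693 FPKM in 1 shGPR81 library, and was listed at 0 in the other 4.

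Among the genes classed as stromelysins and matrilysins, only MMP11 was tested. It was at 0.529, 0.276 and 0.635 FPKM in shNT and at 0.527, 0.401 and 0.367 FPKM in shGPR81, with overlap. MMP3 and MMP10 (stromelysins) and MMP7 (matrilysin), which cut proteoglycans, laminin and other non-fibrillar proteins, were below the limit, and MMP26 was listed at 0.

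Of the membrane-type MMPs, MMP14 (MT1-MMP), which degrades collagen at the cell surface and activates pro-MMP2, rose. Its level was 38.7, 44.1 and 43.9 FPKM in shNT and 62.1, 62.9 and 65.2 FPKM in shGPR81. The groups were far apart relative to their spread, with means of 42.3 ± 3.09 and 63.4 ± 1.60 FPKM (SD, n = 3). The log2 fold change was 0.59 with an SE of 0.06 and a 95% interval of 0.44 to 0.74 (limma, adjusted p = 0.00303). Its fold change barely cleared the limit, at 0.586 against 0.585 on the log2 scale, and it fell short without shNT replicate 1 (0.52) or shGPR81 replicate 3 (0.57) and when libraries were centred on their median or quantile-normalized (0.58). The adjusted p stayed under 0.05 in all 6 fits with 1 library left out, between 0.00159 and 0.0226. MMP14 lies at chr14:23305769-23318250 on GRCh37.

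**Figure D2:**
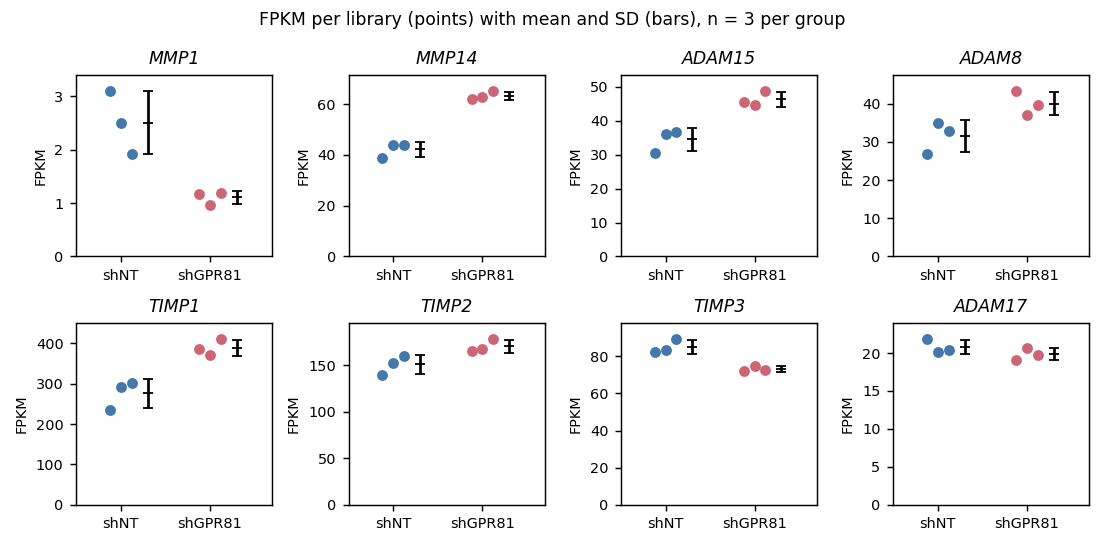
FPKM of 8 genes in each library (points, n = 3 per group) with the mean and SD (bars), each axis starting at 0. MMP1 and TIMP3 lie lower and MMP14, ADAM15, ADAM8, TIMP1 and TIMP2 lie higher in every library labelled shGPR81, while the ADAM17 groups overlap. Of these genes, only MMP1, MMP14, ADAM15 and TIMP1 had an adjusted p under 0.05 in limma.

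MMP15 (MT2-MMP) was at 1.61, 1.51 and 1.87 FPKM in shNT and at 1.07, 1.09 and 1.49 FPKM in shGPR81. The libraries labelled shGPR81 were all lower, and the difference did not pass the test (log2 fold change -0.43, SE 0.17; limma, adjusted p = 0.215). MMP16 (MT3-MMP) was at 0.733, 0.796 and 0.673 FPKM against 0.828, 1.09 and 0.928 FPKM, without overlap and without passing the test (log2 fold change 0.32; limma, adjusted p = 0.347). MMP17, MMP24 and MMP25 were below the limit. MMP19, a matrix protease outside these classes, was at 0.490, 0.302 and 0.644 FPKM against 0.843, 0.732 and 0.512 FPKM with overlap.

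MMP14 alone supplied most of the MMP transcript in every library. It made up 84.7%, 88.0% and 87.3% of the summed MMP FPKM in shNT and 92.7%, 93.0% and 93.1% in shGPR81. The ratio of MMP14 to MMP1 was 12.5, 17.6 and 22.9 in shNT and 53.0, 64.7 and 54.9 in shGPR81. The ratio of TIMP2 to MMP14, whose products meet on the cell surface, was 3.62, 3.46 and 3.64 in shNT and 2.65, 2.68 and 2.74 in shGPR81. Summed TIMP over summed MMP FPKM was 10.2, 10.7 and 11.2 in shNT and 9.44, 9.23 and 9.59 in shGPR81. None of these quantities overlapped between the groups. The ratio of MMP14 to MMP1 had to separate, since MMP14 was higher and MMP1 lower without overlap. The other quantities hold MMP14 or a sum made mostly of it, so they are not results apart from that gene.

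**Figure D3:**
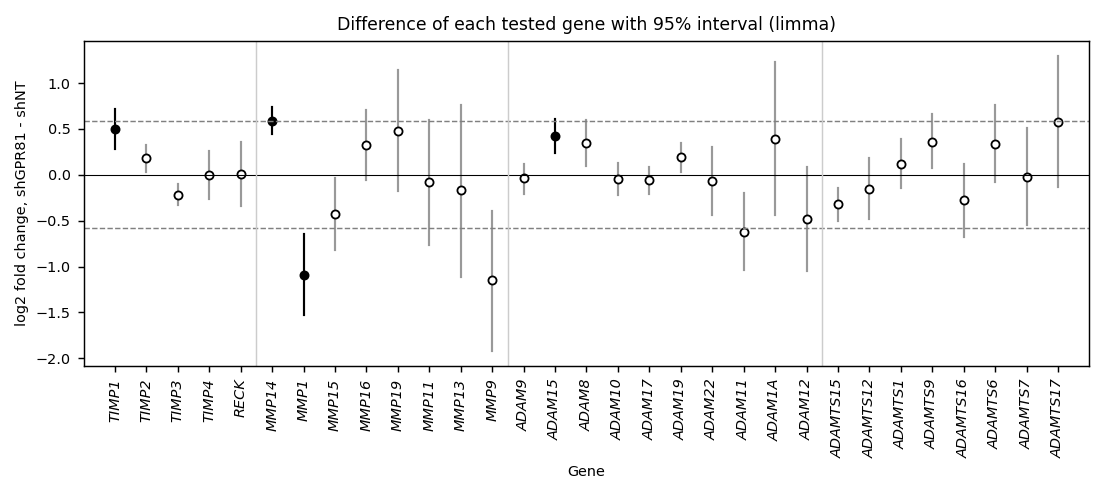
Log2 fold change (shGPR81 minus shNT) of each tested gene with its 95% interval from limma. Filled points have an adjusted p under 0.05 (MMP1, MMP14, ADAM15 and TIMP1), and dashed lines mark a fold change of 1.5 in either direction.

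Among the ADAMs with a zinc-binding motif, ADAM15 (metargidin), which carries an integrin-binding motif beside its protease domain, passed the test. It was at 30.6, 36.2 and 36.7 FPKM in shNT and at 45.5, 44.5 and 48.7 FPKM in shGPR81. The groups did not overlap, and the first shNT library was again the lowest. The means were 34.5 ± 3.39 and 46.2 ± 2.21 FPKM (SD, n = 3), with a log2 fold change of 0.42, an SE of 0.08 and a 95% interval of 0.24 to 0.61 (limma, adjusted p = 0.027), which is 1.34-fold and below the fold limit. ADAM15 lies at chr1:155023042-155035251 on GRCh37 and overlaps DCST1 on the same strand, which was at or below 0.0672 FPKM. With 1 library left out the adjusted p was 0.0128 without shNT replicate 1 and 0.0377 without replicate 3, and 0.0752 to 0.105 without any other.

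ADAM8, a sheddase of leukocytes that many breast tumors express, was at 26.8, 34.9 and 32.8 FPKM in shNT and at 43.3, 37.1 and 39.7 FPKM in shGPR81. Its groups did not overlap, and it did not pass the test (log2 fold change 0.35, SE 0.11; limma, adjusted p = 0.119). ADAM19, which can shed neuregulins, was at 9.51, 10.1 and 10.4 FPKM against 11, 12 and 11.3 FPKM, again without overlap (log2 fold change 0.19; limma, adjusted p = 0.178). ADAM12, a protease of fusing muscle cells and of tumors, was at 0.323, 0.416 and 0.379 FPKM against 0.277, 0.167 and 0.280 FPKM (log2 fold change -0.48; limma, adjusted p = 0.34). In that gene the libraries labelled shGPR81 were the lower ones.

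The main sheddases showed little difference. ADAM10, which releases Notch, cadherin and amyloid precursor ectodomains, was at 32.2, 28.2 and 26.9 FPKM in shNT and at 27.7, 29.2 and 27.5 FPKM in shGPR81. ADAM17, which releases TNF and EGF-receptor ligands, was at 21.8, 20.1 and 20.4 FPKM against 19.1, 20.7 and 19.8 FPKM. The groups overlapped for both, and for ADAM9, a sheddase and integrin ligand whose levels are given above. The 95% intervals of the log2 fold change were -0.22 to 0.13 for ADAM10, -0.21 to 0.08 for ADAM17 and -0.21 to 0.12 for ADAM9. The sign for ADAM9 and ADAM10 turned when shNT replicate 1 was left out, to 0.03 for each.

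Of the ADAMs that lack the motif and act as adhesion or ligand proteins, ADAM11 and ADAM22 were tested. ADAM11, known mainly from neurons, was at 0.847, 0.927 and 0.794 FPKM in shNT and at 0.629, 0.458 and 0.490 FPKM in shGPR81, which were 49, 55 and 46 reads against 39, 28 and 30. The groups did not overlap, and the log2 fold change was -0.62 with an SE of 0.18 (limma, adjusted p = 0.107). ADAM22, the receptor of LGI1 at synapses, was at 2.23, 1.60 and 1.86 FPKM against 2.03, 1.73 and 1.60 FPKM, with overlap. ADAM1A, which the annotation lists as a pseudogene, was at 0.161 to 0.540 FPKM and lies within MAPKAPK5 on the same strand, a gene at 15.4 to 17.3 FPKM.

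Of the ADAMTS genes, 8 of 20 were tested and 0 were called in limma, or had an adjusted p under 0.05. The most abundant were ADAMTS15, an aggrecan- and versican-cleaving protease, and ADAMTS12, which cuts cartilage oligomeric matrix protein. ADAMTS15 was at 6.81, 7.48 and 7.65 FPKM in shNT and at 5.89, 5.92 and 5.65 FPKM in shGPR81. The groups did not overlap (log2 fold change -0.32, SE 0.08; limma, adjusted p = 0.0618, and 0.0305 without shNT replicate 1). ADAMTS12 was at 6.72, 6.39 and 5.29 FPKM against 4.56, 5.95 and 6.15 FPKM with overlap. ADAMTS9, a relative of ADAMTS1 that also cuts proteoglycans, had 100, 97 and 95 reads in shNT and 136, 138 and 130 in shGPR81, a depth-corrected ratio of 1.31 with a 95% counting interval of 1.12 to 1.53. It was higher in every library labelled shGPR81 and did not pass the test (log2 fold change 0.36; limma, adjusted p = 0.171).

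ADAMTS1, which cuts aggrecan and versican, was at 2.59 to 3.20 FPKM in shNT and 3.11 to 3.40 FPKM in shGPR81. ADAMTS16, a fibronectin-cleaving protease, was at 1.03 to 1.40 against 0.862 to 1.14 FPKM. ADAMTS17, which acts on fibrillin matrix, was at 0.162 to 0.378 against 0.325 to 0.586 FPKM. These groups overlapped, as did those of ADAMTS6 and ADAMTS7. Despite overlap, the 95% counting interval of the read ratio left out 1 for ADAMTS17 (1.65, 1.23 to 2.25) and ADAMTS6 (1.31, 1.08 to 1.58). It also did so for ADAMTS12 (0.902, 0.831 to 0.978), and it held 1 for ADAMTS1, ADAMTS7 and ADAMTS16. Such an interval, as given for ADAMTS9, thus does not set a gene apart.

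Below the limit on low values, 4 genes had lower FPKM in every library labelled shGPR81 than in every shNT library and 0 had higher, of 25. Over all 3450 genes above 0 but below the limit, 5.86% lay lower in this way and 1.71% higher. The 4 genes were named after their values had been seen, and rest on few reads. The intervals below pool the reads of each group and hold counting error only, whereas replicates differed by more than counting noise. ADAMTS3, a procollagen N-proteinase, had 23, 11 and 7 reads against 3, 4 and 2, a depth-corrected ratio of 0.208 with a 95% interval of 0.0888 to 0.434. ADAM23, an integrin-binding ADAM without the motif, had 9, 6 and 6 reads against 1, 2 and 2 (ratio 0.225, interval 0.0664 to 0.614). ADAMTS14, also a procollagen N-proteinase, had 5, 6 and 7 reads against 3, 1 and 3 (ratio 0.368, interval 0.13 to 0.924). In MMP3 (stromelysin-1) the counts were 2, 1 and 4 against 1, 1 and 0, so a library of each group held the same count. Fitted without the limit, the adjusted p in limma was 0.0975 for ADAM23, 0.164 for ADAMTS3, 0.184 for ADAMTS14 and 0.337 for MMP3.

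**Figure D4:**
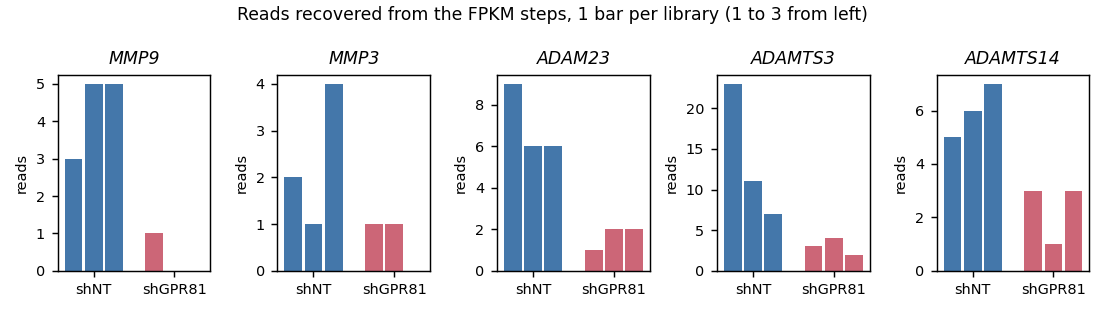
Whole reads recovered from the FPKM of 5 scarce genes, 1 bar per library (replicates 1 to 3 from left) and each axis starting at 0. MMP9 has 13 reads in shNT and 1 in shGPR81, and the highest single bar is 23 reads for ADAMTS3.

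The sequences in front of the 3 genes with higher RNA at an adjusted p under 0.05 are shown because their RNA differed in the same direction. Each line gives RefSeq sequence on GRCh38.p14 from 250 bases before to 50 bases after the start of the gene, 5′ to 3′ along its strand, at chr14:22836335-22836634 (plus strand) for MMP14, chr1:155051066-155051365 (plus strand) for ADAM15 and chrX:47582186-47582485 (plus strand) for TIMP1. Capitals mark the GC box, the letters GGGCGG on either strand.
MMP14: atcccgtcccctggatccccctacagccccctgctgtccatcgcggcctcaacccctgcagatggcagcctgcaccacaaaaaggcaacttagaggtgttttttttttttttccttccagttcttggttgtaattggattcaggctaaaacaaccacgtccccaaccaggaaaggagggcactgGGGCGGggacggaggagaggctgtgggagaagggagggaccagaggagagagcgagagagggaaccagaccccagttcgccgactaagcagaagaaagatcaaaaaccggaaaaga
ADAM15: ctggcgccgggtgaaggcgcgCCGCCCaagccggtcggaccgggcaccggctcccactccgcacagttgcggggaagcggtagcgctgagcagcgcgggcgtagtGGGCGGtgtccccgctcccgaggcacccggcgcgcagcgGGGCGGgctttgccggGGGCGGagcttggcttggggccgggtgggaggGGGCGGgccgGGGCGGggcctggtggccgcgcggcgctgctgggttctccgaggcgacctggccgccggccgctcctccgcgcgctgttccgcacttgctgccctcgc
TIMP1: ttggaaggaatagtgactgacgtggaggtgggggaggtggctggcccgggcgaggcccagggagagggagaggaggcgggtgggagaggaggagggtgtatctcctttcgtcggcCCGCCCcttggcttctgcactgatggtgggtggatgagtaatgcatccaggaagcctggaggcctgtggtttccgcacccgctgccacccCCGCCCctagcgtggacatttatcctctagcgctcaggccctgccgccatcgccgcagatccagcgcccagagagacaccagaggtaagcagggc
The MMP14 window held 1 GC box, ADAM15 6 and TIMP1 2, and their GC content was 55%, 79.3% and 65%. None held the TATA word TATAAA, the AP-1 word TGANTCA or the CRE word TGACGTCA on either strand. Only exact matches were sought, so variant forms of these sites would be missed. Of the 75 genes, 40 had such a window in RefSeq. Tested genes without a window included MMP1, the only gene called lower, and MMP9, MMP13, MMP16, MMP19, ADAM9 and TIMP2. The counts that follow therefore say nothing about sites in front of those genes. The GC box was in 27 of these 40, or 67.5%, and in 44.6% of 27305 windows in all. Among windows of tested genes, it was in 16 of the 18 metalloprotease and inhibitor windows and in 69.1% of 10438 in all. The TATA word was in 8 of the 40 (20% against 12% of all windows) and in 0 of the 18, beside 5.67% of the windows of all tested genes. The AP-1 word was in 4 of the 40 (10% against 7.76%), of which only ADAMTS12 was tested, and the CRE word was in ADAMTS6 alone (2.5% against 1.98%).

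Genes that act with the metalloproteases were taken from 8 lists with 99 genes reported here, of which 74 were tested. Here 0 were called lower and 2 were called higher in limma (PLAT and SERPINB2), beside the 1.59% and 0.955% over all genes. At an adjusted p under 0.05 whatever the fold, 5 were lower and 6 higher, beside 3.07% and 2.06% over all genes; the counts of single lists by adjusted p that follow are to be set against these same shares. The median log2 fold change was 0.07, beside 0.008 over all tested genes, and 28 of the 74 were below 0 and 46 above. The share of all tested genes above 0 was not worked out, so these counts by sign show no shift by themselves.

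The serine proteases and inhibitors that govern plasmin, an activator of pro-MMPs, gave 2 higher genes of the 6 tested and reported here at an adjusted p under 0.05. PLAT (tissue plasminogen activator) rose from 66.2, 74.0 and 76.7 FPKM to 112, 113 and 121 FPKM, with a log2 fold change of 0.67 (limma, adjusted p = 0.00213). SERPINB2 (plasminogen activator inhibitor type 2) rose from 4.18, 4.24 and 3.32 FPKM to 8.60, 8.83 and 8.18 FPKM, with a log2 fold change of 1.11 (limma, adjusted p = 0.00213). Thus an activator and an inhibitor of the same system were both higher. Of the proprotein convertases reported here, 6 were tested and 0 passed in limma. FURIN, which cuts the precursors of MMP14 and many ADAMs, was at 3.78, 5.20 and 5.49 FPKM against 6.08, 5.90 and 6.96 FPKM and did not pass.

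Of 8 tested partners that carry ADAM10 or ADAM17 through the cell, RHBDF1 (iRhom1), an ADAM17 partner, was higher, with a log2 fold change of 0.54 (limma, adjusted p = 0.0276), and ADAM17 itself overlapped between the groups. All 11 AP-1 and ETS factors, a class that drives many MMP promoters, were tested. Of these, FOSL1 (log2 fold change 0.36, limma, adjusted p = 0.0436) and JUN (0.34, limma, adjusted p = 0.0326) passed at less than 1.5-fold. Of 21 tested shed substrates, NRG1 (neuregulin 1) and SDC4 (syndecan 4) were lower, with log2 fold changes of -0.34 and -0.29 (limma, adjusted p = 0.00954 and 0.0476). Of 12 tested matrix substrates 3 were lower and 1 was higher. THBS1 (thrombospondin 1) had a log2 fold change of -0.56, COL4A1 of -0.40, FN1 (fibronectin) of -0.28 and TNC (tenascin C) of 0.36 (limma, adjusted p = 0.00208, 0.0126, 0.0148 and 0.028). In the ADAMTS-like and astacin list (8 tested) and the list of other inhibitors and inducers (2 tested), 0 genes passed in limma. No list was tested as a whole.

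**Figure D5:**
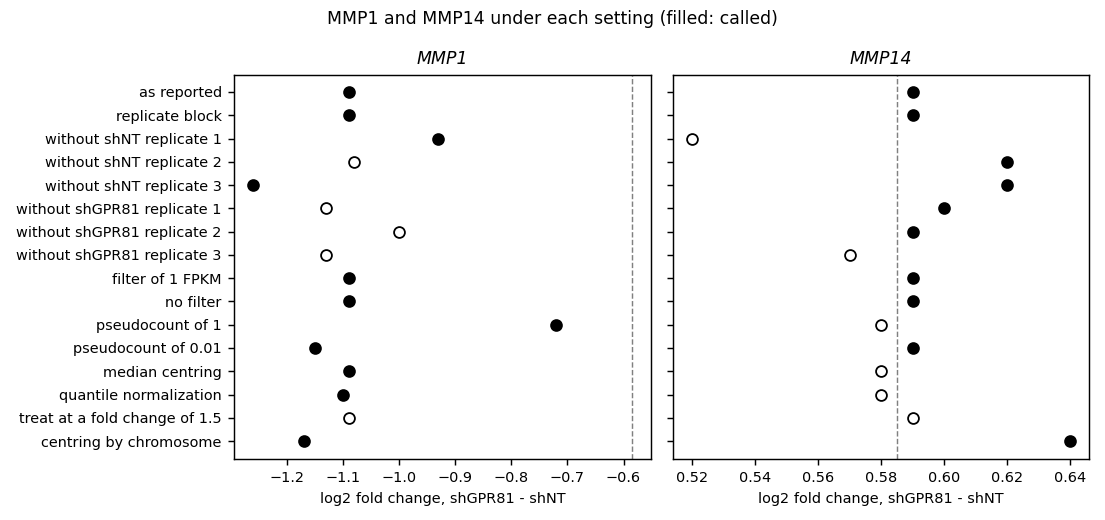
Log2 fold change (shGPR81 minus shNT) of MMP1 and MMP14 under each way of processing, with filled points where the gene was called and dashed lines at a fold change of 1.5. MMP1 stays between -1.26 and -0.72, and MMP14 between 0.52 and 0.64 on either side of the line.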

How the data were processed

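MDA-MB-231 cells were sequenced from TruSeq stranded mRNA libraries (3 shNT and 3 shGPR81). The deposited values are FPKM, which the authors made 1 value per gene symbol and library; the submitters' processing notes name TopHat2 2.0.13, Bowtie2 2.2.3, SAMtools 0.1.19 and Cuffnorm 2.2.1. The paper maps reads to the human genome, whereas the deposited description names the mouse genome; the annotation, the strand setting and the read totals are not given in the sources used here, so overlapping genes are uncertain. The paper's own test ran on read counts in iDEP; FPKM are not counts, so no count test was used.

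Genes with at least 0.1 FPKM in at least 3 of the 6 libraries (14349) were fitted as log2(FPKM + 0.1) with limma 3.58.1 (lmFit, eBayes with trend) under R 4.3.3, without a block, and p-values were adjusted over all of them by Benjamini-Hochberg. Fold changes are on this scale and understate those of low genes. The script was tested on simulated data. Whole reads were recovered for 5531 of 15931 genes, 31 of them metalloprotease or inhibitor genes, where FPKM of all libraries were multiples of 1 step within a tolerance of 0.0001; ratios carry Clopper-Pearson intervals at 95%, for counting error only. Replicates differed by more than counting noise, with 2.73 to 3.96 as the chi-square of a gene on average (1 under noise alone). Coordinates are GENCODE release 44 on GRCh37, with 1 locus for 73 of the 75 genes. Tables were handled with Python 3.11.15, pandas 2.3.3 and scipy 1.17.1.

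The genes, lists and tests were chosen with earlier results of these data known. Named were all called genes, tested genes beyond 1.5-fold, the TIMPs and RECK, the 5 most abundant of each protease family, genes on chromosome 20, and called genes of the other lists; others are given for their class or marked. Some genes of the other lists are not reported here and were left out of the list counts. The alternatives tried were a block for the replicate number, leaving out each library, other filters, pseudocounts and scalings, limma's treat and centring by chromosome.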

Additional observations from a re-analysis of the deposited data

How the results depend on the processing

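Over 369 values of 25 named genes under all alternatives, 344 kept their direction and their call by adjusted p and fold together, 13 lost the call, 1 gained it and 11 turned sign; by the adjusted p alone, 19 values lost a pass at 0.05 (TIMP1 6, ADAM15 5, MMP1 5, and MMP14, PLAT and SERPINB2 1 each, under treat) and 4 gained it (TIMP3 2, ADAMTS15 1 and MMP9 1); the direction of 21 genes held throughout. The number of metalloprotease genes called lower was 0 to 1 with 1 library left out, 2 without a filter (MMP1 and MMP9) and 0 with limma's treat. The number called higher was 0 to 1 with 1 library left out and 0 with a pseudocount of 1, median centring, quantile normalization or treat; with each of the first 3 of these, 3 genes still had a higher level at an adjusted p under 0.05, and with treat 1 gene had an unadjusted p under 0.05 (MMP1). The median log2 fold change of the tested genes lay between -0.06 and 0.03 with 1 library left out. Sign changes fell on genes near 0: RECK (-0.06 to 0.09 with 1 library left out, -0.005 after quantile normalization, -0.10 after centring by chromosome), TIMP4 (-0.10 to 0.11, and 0.01 after centring by chromosome), ADAM9 (-0.09 to 0.03) and ADAM10 (-0.10 to 0.03). The cause was not tested. Libraries sharing a replicate number were not treated as pairs: their residuals correlated at 0.12, 0.0223 and 0.00577 across genes. With a replicate block, 1 gene was called lower and 1 higher, and the adjusted p in limma was 0.033 for MMP1 and 0.0088 for MMP14. In genes with a few reads, such as MMP9, depth limits what can be seen.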
